A study of Mus musculus with 12 samples.

Results

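The cortex of the 8 mice that carry lpr, 4 MRL/lpr and 4 Fn14ko, was compared as a single side with the cortex of 4 MRL/+ mice, which lack lpr. All 17302 genes quantified in the 12 mice were used, and a gene was counted as shared when limma called it for the contrast of both lpr groups against MRL/+ and every lpr-bearing mouse lay on the same side of every MRL/+ mouse. By that rule 878 of the 17302 genes were shared, 364 of them higher and 514 lower in the lpr-bearing mice. The rule thus picks out genes displaced from MRL/+ in the same direction in MRL/lpr mice and in mice labelled as lacking Fn14.

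MRL/lpr mice carry the Fas-lpr allele on the MRL background. Fn14ko mice, named Fn14koMRL in the labels, are also of the lpr background by the study's methods and are labelled as knockouts of Fn14, the product of Tnfrsf12a. MRL/+ mice share the MRL background and have neither allele. All 12 mice were females of about 12 weeks in diestrus, and the sources used here name no drug or other agent. MRL/lpr and Fn14ko mice were littermates from the same breeding facility, with the Fn14 deletion backcrossed to generation 8, whereas MRL/+ mice were bought from another supplier. RNA of each cortex was labelled with Cy3 (replicates 1 and 3 of each group) or Cy5 (replicates 2 and 4) and hybridized to Agilent mouse arrays, 2 mice of the same group to an array. Each group had its own slide, so lpr, slide and source of the mice cannot be told apart in any value given here. Gene signal is given relative to the median retained spot of the same mouse, so that 1 is the median, and differences are on the log2 scale, lpr-bearing minus MRL/+.

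Fas is the death receptor through which activated lymphocytes are removed, and lpr is an insertion of a retroviral element in an intron of the gene that leaves little functional receptor. MRL mice with lpr develop autoantibodies, immune complexes and enlarged lymph glands, and with them disturbances of mood and memory that are used to model neuropsychiatric lupus. Fn14 is the receptor of TWEAK (Tnfsf12), a cytokine that acts on endothelium, glia and neurons.

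In total 1667 genes (9.63% of those tested) passed an adjusted p of 0.05 in limma for both lpr groups against MRL/+. Of these, 706 were higher (4.08% of the genes tested) and 961 were lower (5.55%). The 364 shared higher genes made up 2.1% and the 514 shared lower genes 2.97% of the genes tested. Without asking for a call, all 8 lpr-bearing mice lay above all 4 MRL/+ mice in 594 genes (3.43%) and below them in 640 (3.7%). The shift of the shared higher genes ranged from 0.45 to 3.35, with a median of 0.79 (0.85 in MRL/lpr and 0.70 in Fn14ko). That of the shared lower genes ranged from -2.98 to -0.45, with a median of -0.95 (-1.02 in MRL/lpr and -0.87 in Fn14ko), and the median of all genes was -0.09. More than 2-fold displacement was found in 96 of the higher and 223 of the lower genes, and more than 4-fold in 1 and 16. Called against MRL/+ in MRL/lpr and in Fn14ko separately, with the same sign, were 121 genes (0.699%), of which 26 were shared higher and 94 shared lower genes. These separate comparisons use the same 4 MRL/+ mice.

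**Figure D1:**
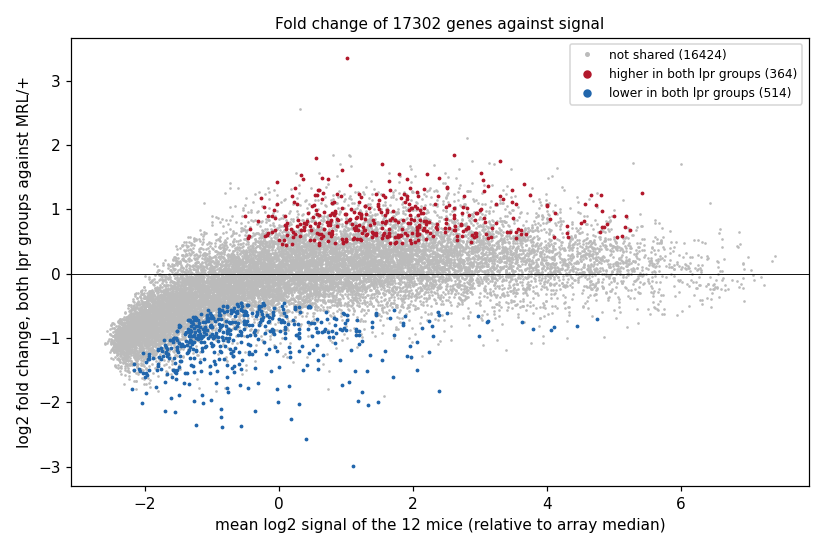
Log2 fold change of each of 17302 genes, both lpr groups against MRL/+ (vertical axis), against its mean log2 signal over the 12 mice relative to the array median (horizontal axis). The 364 shared higher genes (red) lie to the right, the 514 shared lower genes (blue) mostly near or below the median signal, and the grey cloud of the other 16424 genes slopes downwards at the dim end.

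The shared genes were not spread evenly over signal. Of the 4326 genes of lowest mean signal, 0 were shared higher and 119 shared lower, and of the 4326 of highest signal 170 were shared higher and 29 shared lower. All genes of the dimmest set had a median shift of -0.76 (-0.39 among Cy3 mice and -1.13 among Cy5 mice), against 0.22 in the brightest. Among the Cy5 channels, the MRL/+ mice had 35% and 21.2% of probes well above background, against 56.6% to 59.7% in the lpr-bearing mice, and the ratio of negative control spots to local background was 6.12 and 6.31 there and between 1.67 and 2.65 in the other Cy5 channels. Shifts were larger among Cy5 than among Cy3 mice for 320 of the 364 higher and 336 of the 514 lower genes, against 12879 of all 17302 genes. The share was thus above that of all genes for the higher genes and below it for the lower genes. The part of these channels in the counts was not tested. Without MRL/+ replicate 4, 174 genes were called, of which 26 were shared higher and 116 shared lower, and without MRL/+ replicate 3 the numbers were 6029, 984 and 3420. Among the Cy3 mice alone, 749 genes were called, 104 of them being shared higher and 210 shared lower genes of all 12 mice. When each channel was divided by its 75th percentile instead of the median, the median of all genes became -0.33 and the share of called genes that were higher was 18.6% in place of 42.4%. With the processed signal of the files it was 29.2%.

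The genes altered in the strains were read first. Fas signal was 0.164, 0.284, 0.171 and 0.191 in MRL/lpr replicates 1 to 4, 0.331, 0.270, 0.171 and 0.183 in Fn14ko, and 0.458, 0.647, 0.186 and 0.643 in MRL/+. All lpr-bearing mice were below 3 of the MRL/+ mice, but MRL/+ replicate 3 lay among them. The difference was -1.03 ± 0.39 (SE), with a limma adjusted p of 0.099 and a 2-sided exact permutation p of 0.0141 over the 495 divisions of the 12 mice into 8 and 4. Where the Fas probe lies with respect to the lpr insertion was not tested. Tnfrsf12a was 1.38 to 1.90 in MRL/lpr, 0.604 to 0.777 in Fn14ko and 0.943 to 1.28 in MRL/+, with no overlap among the 3 groups. Against MRL/+ it was 0.60 in MRL/lpr (adjusted p = 0.0555) and -0.67 in Fn14ko (adjusted p = 0.104), neither of which passed, and -0.03 in both together, whereas MRL/lpr exceeded Fn14ko by 1.27 (adjusted p = 0.00287). Signal remained in Fn14ko, and the probe was well above background in 11 of the 12 mice. Whether that probe lies in the deleted part of Tnfrsf12a was not tested. Tnfsf12, the ligand, differed by -0.41 (adjusted p = 0.147). Of the 17 tested genes of Fas and death receptor signaling 0 were called in limma. Under an unadjusted limma p of 0.05 were 7 of them, against 5872 of all 17302 genes.

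The genes furthest below MRL/+ were several-fold lower in both MRL/lpr and Fn14ko. Pfn1 (profilin 1, which binds actin monomers and governs filament growth) stood at 1.40, 0.682, 1.01 and 1.40 in MRL/lpr, 1.08, 1.65, 0.619 and 1.19 in Fn14ko, and 8.59, 7.37, 10.5 and 7.82 in MRL/+. The lowest MRL/+ mouse was more than 4 times the highest lpr-bearing mouse. The shift was -2.98 ± 0.32, a 7.90-fold lower signal (adjusted p = 0.000961), and it was -2.98 in MRL/lpr and -2.99 in Fn14ko. Ap2a2, a subunit of the clathrin adaptor AP-2, was 0.376 to 0.964 (median 0.754) in the 8 lpr-bearing mice and 3.89, 3.36, 6.83 and 3.87 in MRL/+, a shift of -2.56 ± 0.27 (adjusted p = 0.000961). Scfd2 (a Sec1 family protein) was 0.337 to 0.454 (median 0.379) in the lpr-bearing mice and 1.88, 1.93, 2.25 and 2.04 in MRL/+, a shift of -2.37 ± 0.14 (adjusted p = 8.42e-06). In all 3 genes the ranges of MRL/lpr and Fn14ko overlapped each other and neither met that of MRL/+. The 95% interval of the difference between MRL/lpr and Fn14ko was -0.80 to 0.82 for Pfn1, -0.95 to 0.40 for Ap2a2 and -0.24 to 0.48 for Scfd2, so only for Scfd2 did it lie within 1.5-fold.

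The signals of these genes were read on single 60-base probes, of which the first 30 bases are given, with the position and strand of the whole probe in mm9, because the finding rests on what these oligonucleotides bound. The Pfn1 probe spans a longer stretch of genome than its own length.
Pfn1, chr11:70465688-70466312, minus strand: tcactgtcaccatgactgccaagacgctag
Ap2a2, chr7:148818293-148818352, plus strand: ccaggattgctatagactgagctgtatggg
Scfd2, chr5:74602159-74602218, minus strand: ttaattctaccagagaggtcttcatgactg
Of the probes for these genes, 1 of 2 was retained for Pfn1, 1 of 1 for Ap2a2 and 1 of 3 for Scfd2, and the others were dim or marked in at least 1 mouse.

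Among the other 9 of the 12 lowest genes, shifts ran from -2.23 for Igsf11 to -1.74 for Tnfrsf21. Wdr1, which with cofilin takes actin filaments apart, was 1.10 to 2.32 (median 1.59) in the lpr-bearing mice and 5.73, 5.84, 6.97 and 7.52 in MRL/+ (shift -2.04 ± 0.20, adjusted p = 0.000824). Wdr1 and Pfn1, both regulators of actin, were thus each more than 4-fold lower. Igsf11, a cell adhesion molecule of the immunoglobulin superfamily, was 0.182 to 0.450 (median 0.339) against 1.31, 1.29, 1.93 and 1.72 in MRL/+. Sez6l, a neuronal membrane protein related to the complement-control proteins, was 0.173 to 0.572 (median 0.335) against 1.13, 1.79, 0.909 and 2.4 (shift -2.10 ± 0.23). Plekhj1 (a pleckstrin homology protein) fell by 2.13, Mgst3 (microsomal glutathione S-transferase 3) by 2.02 and Schip1 (a partner of schwannomin) by 2.00 on the log2 scale. Rnf126 (a ubiquitin ligase) fell by 1.97, Zhx1 (a zinc finger and homeobox repressor) by 1.78 and Tnfrsf21 (death receptor 6, of the same receptor superfamily as Fas and Fn14) by 1.74. Each of these 9 genes had a limma adjusted p between 0.000824 and 0.00877. In each, as the rule requires, the highest lpr-bearing mouse was below the lowest MRL/+ mouse. Each of the 12 was called with the same sign in 29 of 30 alternative analyses, the exception being the fit without a filter on dim spots, which called 0 genes. By the rule for shared genes, the shift had to be negative within each dye. It ran from -3.27 to -1.95 among Cy3 mice and from -2.70 to -1.47 among Cy5 mice. Ywhaz, a 14-3-3 protein named after its values were seen, was lower by all 3 of its probes (-1.18, -1.19 and -2.4) and by -1.41 ± 0.21 as a gene.

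**Figure D2:**
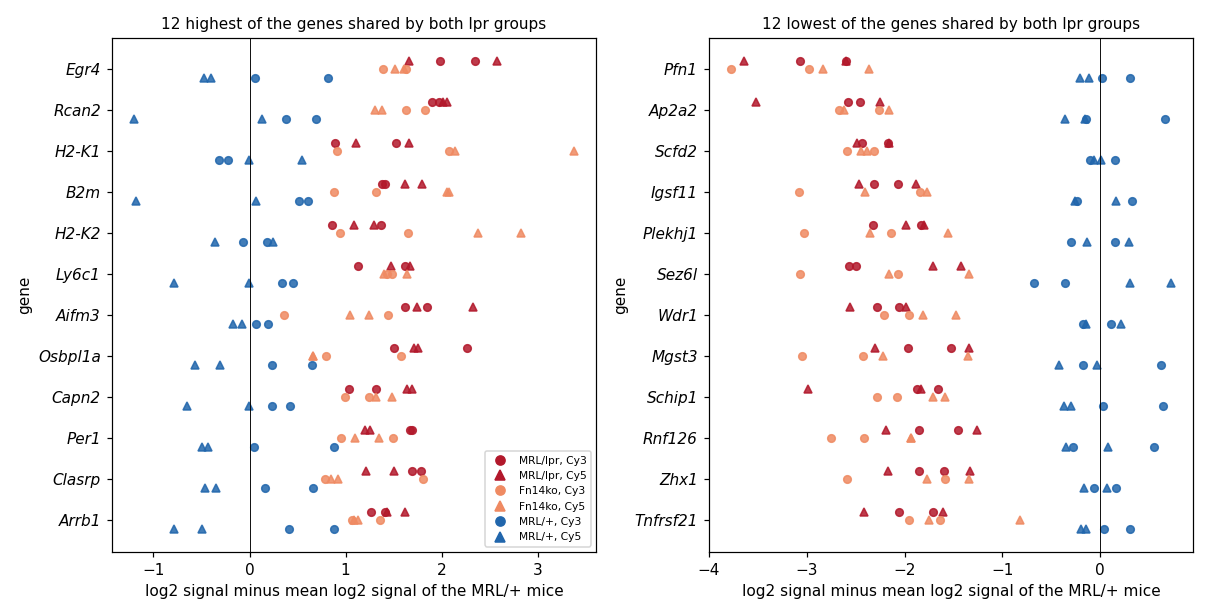
Log2 signal of each mouse minus the mean log2 signal of the 4 MRL/+ mice (horizontal axis) for the 12 highest and 12 lowest shared genes that carry a symbol and were well above background in all 12 mice (vertical axis). Circles are Cy3 mice and triangles Cy5 mice. By the rule for shared genes, MRL/lpr (red) and Fn14ko (orange) mice lie on the same side of the MRL/+ mice (blue), which sit around 0.

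Several class I histocompatibility genes were higher in the contrast of both lpr groups together. These proteins, with beta-2 microglobulin as their light chain, present peptides of the cell interior to T lymphocytes, and in brain they are found on endothelium, microglia and neurons. H2-K1 was 3.77, 4.15, 2.43 and 2.83 in MRL/lpr, 2.48, 5.79, 5.55 and 13.7 in Fn14ko, and 1.05, 1.31, 1.13 and 1.92 in MRL/+. All lpr-bearing mice were above all MRL/+ mice, with Fn14ko replicate 4 far above the rest, and the shift was 1.71 ± 0.33 (adjusted p = 0.0104). B2m was 10.2, 13.6, 10.4 and 12 in MRL/lpr, 7.20, 16.2, 9.72 and 16.5 in Fn14ko, and 5.96, 4.10, 5.58 and 1.72 in MRL/+. It did not overlap either, and its shift of 1.57 ± 0.42 (adjusted p = 0.0386) was 0.69 among Cy3 and 2.45 among Cy5 mice. H2-D1 was 0.819 to 7.48 (median 1.51) in the lpr-bearing mice and 0.690, 0.773, 0.474 and 0.589 in MRL/+, a shift of 1.53 ± 0.43 (adjusted p = 0.0441). H2-K2 rose by 1.55 ± 0.32 and H2-Q7, a class Ib gene, by 1.47 ± 0.32, both without overlap, whereas H2-T23 (1.24 ± 0.29, adjusted p = 0.0222) was called but overlapped MRL/+. With MRL/lpr and Fn14ko each against MRL/+ in limma, H2-K1 passed in both (adjusted p = 0.0381 and 0.0243). H2-K2 passed in Fn14ko alone (0.0546 and 0.0328), and B2m (0.0505 and 0.118) and H2-D1 (0.172 and 0.0661) in neither. The H2-D1 shift was 0.99 in MRL/lpr and 2.07 in Fn14ko, that of B2m 1.55 and 1.58. Of the 15 tested genes of class I and peptide loading, 5 were higher (H2-K1, H2-D1, H2-Q7, H2-T23 and B2m) and 0 lower. Over all genes 4.08% were higher and 5.55% lower. The median of the list was 0.46, against -0.09 for all genes. The called members were the presenting molecules themselves: Tap1 (-1.31, adjusted p = 0.0887) and Tap2 (0.23), the peptide transporter, Tapbp (0.57), which loads peptide, and Nlrc5 (-1.09), the transactivator of class I genes, did not pass. Class I genes are near-identical copies, so a probe of 1 gene may bind transcripts of another and their values are not independent. Leaving out MRL/+ replicate 4 or both Cy5 MRL/+ mice left 0 members called, with list medians of 0.36 and 0.24. With the lpr-bearing mice as 1 group and a random block for array or for slide, limma also called 0 of the 15, at the same median.

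The promoters of the class I genes that moved together are shown because they share sequence elements near the start. Each line is a RefSeq window of GRCm38.p6, 250 bases before to 50 after the start, on the strand of the gene, with matches in capitals.
B2m, chr2:122147437-122147736, plus strand: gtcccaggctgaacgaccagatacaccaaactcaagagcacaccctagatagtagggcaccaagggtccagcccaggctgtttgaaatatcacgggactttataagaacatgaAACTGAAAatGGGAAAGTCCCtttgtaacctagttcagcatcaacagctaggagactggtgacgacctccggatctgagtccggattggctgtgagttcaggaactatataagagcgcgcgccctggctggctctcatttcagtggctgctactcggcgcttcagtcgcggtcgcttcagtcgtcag
H2-K1, chr17:34000298-34000597, minus strand: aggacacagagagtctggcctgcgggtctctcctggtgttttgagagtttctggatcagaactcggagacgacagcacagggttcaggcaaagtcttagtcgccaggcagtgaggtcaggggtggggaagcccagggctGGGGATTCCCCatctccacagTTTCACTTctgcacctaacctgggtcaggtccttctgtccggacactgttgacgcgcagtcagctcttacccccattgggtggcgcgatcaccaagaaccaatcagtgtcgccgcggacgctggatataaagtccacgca
H2-D1, chr17:35262844-35263143, plus strand: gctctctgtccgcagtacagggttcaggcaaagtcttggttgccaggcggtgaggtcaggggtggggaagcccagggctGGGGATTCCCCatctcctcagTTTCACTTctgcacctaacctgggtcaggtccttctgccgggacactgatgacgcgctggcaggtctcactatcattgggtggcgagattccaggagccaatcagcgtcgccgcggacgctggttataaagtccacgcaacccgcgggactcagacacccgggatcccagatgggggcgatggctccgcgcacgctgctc
The capitals mark AANNGAAA, the letters of an interferon-type element, and GGGA and CC with 4 free bases between them, those of a kappaB-type element, both searched on either strand and chosen after the sequences were seen. Each of the 3 windows holds both elements, close together. Of all 32851 windows, 23.9% hold the first and 20.7% the second. Of the 12 highest genes 9 have a window, 4 with the first and 5 with the second, and of the 12 lowest genes 11 have a window, 2 with the first and 2 with the second. A match is a description of the letters in a window and was not tied to binding of any factor.

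Immediate early genes, transcribed within minutes of neuronal activity, were next. Egr4, a zinc finger factor, was 10.3, 8.24, 13.3 and 15.6 in MRL/lpr, 6.81, 7.97, 8.04 and 7.45 in Fn14ko, and 2.71, 1.87, 4.59 and 1.98 in MRL/+. No mouse overlapped between the sides, and the shift was 1.84 ± 0.27 (3.58-fold, adjusted p = 0.00366). Of the 13 genes tested in the list, 4 were higher (Egr4, Egr1, Egr2 and Fos) and 1 lower (Ier2), with a median of 0.64. Over all genes the shares were 4.08% higher and 5.55% lower. Egr1 (1.49 ± 0.38), Egr2 (1.26 ± 0.29) and Fos (1.14 ± 0.31) overlapped MRL/+ and were 1.98, 1.90 and 1.67 above it in MRL/lpr against 0.99, 0.61 and 0.61 in Fn14ko. Egr2 differed between MRL/lpr and Fn14ko by 1.29 (adjusted p = 0.0495), whereas for Egr1 (0.99, adjusted p = 0.243) and Fos (1.06, adjusted p = 0.118) the difference did not pass. Ier2, which belongs to the same class, was lower in every lpr-bearing mouse (0.174 to 0.315, median 0.235, against 0.469, 0.569, 0.510 and 0.652) by -1.22 ± 0.26 (adjusted p = 0.0159), though it was well above background in 8 of 12 mice. Arc (1.00, adjusted p = 0.0583) and Npas4 (0.57, adjusted p = 0.283), also widely used as activity markers, did not pass, and Arc was higher in MRL/lpr than in Fn14ko by 1.38 (adjusted p = 0.0454). Without both Cy5 MRL/+ mice 1 gene of the list was called.

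Some genes of the circadian clock were also higher. Per1, a repressor of the clock that is also induced by activity, was 9.88, 7.02, 9.76 and 7.28 in MRL/lpr, 5.93, 6.55, 8.60 and 7.75 in Fn14ko, and 3.14, 2.27, 5.61 and 2.17 in MRL/+. The lowest lpr-bearing mouse, Fn14ko replicate 1, was just above the highest MRL/+ mouse, replicate 3, both labelled with Cy3. The shift was 1.34 ± 0.25 (adjusted p = 0.00877). Bhlhe40, a repressor, rose by 1.54 ± 0.27, Cry2, the partner of the period proteins, by 1.15 ± 0.28 and Dbp, an output factor, by 1.01 ± 0.24, of which Dbp overlapped MRL/+. For Cry2 the brighter of 2 probes showed 1.23 and the other 0.37, with overlap (limma adjusted p = 0.413). These 4 of 15 tested clock genes were higher and 0 were lower, where 4.08% of all genes were higher and 5.55% lower. Without MRL/+ replicate 4 or without both Cy5 MRL/+ mice, 0 clock genes were called. Per2 (0.43, adjusted p = 0.146), Nr1d1 (-0.26) and Arntl (0.62, adjusted p = 0.0786) did not pass. Of the dimmer members, Bhlhe41 (-1.26, adjusted p = 0.0523), the paralogue of Bhlhe40, Cry1 (-0.89, adjusted p = 0.149), that of Cry2, and Npas2 (-1.04, adjusted p = 0.176) had negative values and did not pass either. The median of the list, 0.21, became -0.03 under the 75th percentile scaling. The hour at which the cortex was taken is not given in the sources used here. A window of Per1 is shown because it holds an E-box (CACGTG, in capitals), the element bound by the clock activators. Of all windows 7.15% contain it, and it was also searched after the fact. The other window of Per1, chr11:69099902-69100201, holds 0 E-boxes, as does the window of Cry2, and a part of the element in the shifts was not tested.
Per1, chr11:69098699-69098998, plus strand: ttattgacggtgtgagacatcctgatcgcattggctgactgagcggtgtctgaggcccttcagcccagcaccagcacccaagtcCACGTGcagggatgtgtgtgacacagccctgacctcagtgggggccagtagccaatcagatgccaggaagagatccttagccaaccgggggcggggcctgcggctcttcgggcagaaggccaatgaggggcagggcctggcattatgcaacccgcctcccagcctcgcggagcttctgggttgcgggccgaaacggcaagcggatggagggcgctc

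Several endothelial genes were higher in both lpr groups. Ly6c1, a surface antigen of brain endothelium and of monocytes, was 5.76, 8.44, 8.14 and 7.33 in MRL/lpr, 7.40, 8.26, 7.12 and 6.98 in Fn14ko, and 3.61, 2.64, 3.34 and 1.53 in MRL/+. The lpr groups overlapped each other closely and lay clear of MRL/+, with a shift of 1.48 ± 0.26 (adjusted p = 0.00733) that was 1.47 in MRL/lpr and 1.49 in Fn14ko. Slco1a4, an organic anion transporter of the blood-brain barrier, rose by 0.95 ± 0.16 (adjusted p = 0.00579) and Esam, an adhesion molecule of endothelial junctions, by 0.89 ± 0.14 (adjusted p = 0.00467), both without overlap. Flt1, a receptor of vascular endothelial growth factor, was called at 0.81 ± 0.19 but overlapped. Thus 4 of 15 tested endothelial genes were higher and 0 lower (3 and 1 under the 75th percentile scaling), with a median of 0.50. Of all genes, 4.08% were higher and 5.55% lower. The summed signal of the list was 41.9 to 50.4 in MRL/lpr, 36.4 to 50.4 in Fn14ko and 25.2 to 28.9 in MRL/+, with no overlap. Without both Cy5 MRL/+ mice the list kept a median of 0.44 with 2 called genes, and without MRL/+ replicate 4 a median of 0.44 with 3. Cldn5 (0.54, adjusted p = 0.154), the main claudin of the barrier, did not pass, and Cdh5 (-1.02, adjusted p = 0.0548) and Pecam1 (-0.37) had negative values. In tissue of this kind, more cells of a type and more RNA per cell cannot be told apart. Ly6a, a relative of Ly6c1 named after its values were seen, rose by 1.47 ± 0.26.

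The remaining genes of the 12 highest belong to no list. Rcan2, an inhibitor of calcineurin, was 17.0, 18.1, 16.2 and 17.5 in MRL/lpr, 15.4, 11.3, 13.4 and 10.7 in Fn14ko, and 7.04, 4.76, 5.65 and 1.88 in MRL/+. All lpr-bearing mice were above MRL/+, and the shift was 1.76 ± 0.30 (adjusted p = 0.00646). Aifm3, a mitochondrial protein related to apoptosis-inducing factor, rose by 1.45 ± 0.24 and Capn2, a calcium-dependent protease, by 1.34 ± 0.26. Osbpl1a (an oxysterol-binding protein) rose by 1.37 ± 0.24, Clasrp (a splicing regulator) by 1.32 ± 0.23 and Arrb1 (beta-arrestin 1, which silences G protein-coupled receptors) by 1.29 ± 0.31. These genes were bright, at 4.18 to 22.3 in the lpr-bearing mice, and their adjusted p ranged from 0.00546 to 0.0254. Of 30 alternatives, Arrb1 was called in 21, Osbpl1a in 22, Aifm3, Capn2 and Clasrp in 25 each and Rcan2 in 26. Arrb1 shifted by 0.63 among Cy3 and 1.96 among Cy5 mice. Osbpl1a rose by 2.06 on a retained probe and by 0.94, with overlap, on the other. Col6a1, a collagen named after its values were seen, was 2.70 to 4.47 in MRL/lpr, 1.23 to 1.96 in Fn14ko and 0.424 to 0.755 in MRL/+. Its 3 groups did not overlap, the shift was 1.80 ± 0.19 (adjusted p = 0.000961), and MRL/lpr exceeded Fn14ko by 1.15 (adjusted p = 0.011).

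**Figure D3:**
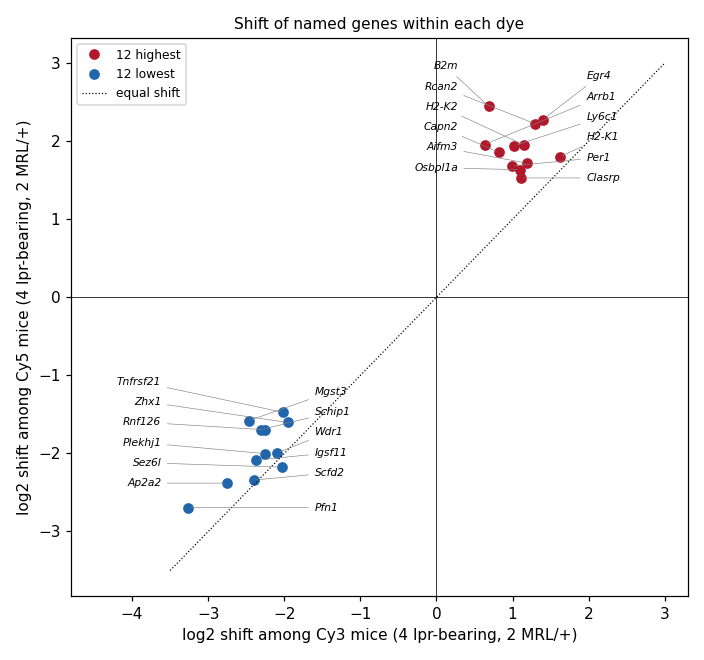
Log2 shift of lpr-bearing against MRL/+ mice for the 12 highest (red) and 12 lowest (blue) shared genes, among Cy3 mice (horizontal axis) and among Cy5 mice (vertical axis), each from 4 lpr-bearing and 2 MRL/+ mice. The 12 lowest lie near or above the line of equal shift and the 12 highest lie above it, B2m the furthest (0.69 in Cy3 and 2.45 in Cy5).

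Interferon-stimulated genes had no settled direction as a list, with a median of -0.18 that was 0.16 among Cy3 mice, 0.47 after loess and quantile scaling and 0.79 with the processed signal. Of 23 tested genes 4 were higher, namely Stat2 (0.62 ± 0.13) and Irf9 (0.81 ± 0.18), which form the interferon-activated factor ISGF3, and the GTPases Gbp3 (0.83 ± 0.23) and Igtp (0.84 ± 0.25), and 0 were lower. Over all genes 4.08% were higher and 5.55% lower. After loess and quantile scaling 13 of the 23 were higher, and under the 75th percentile scaling 0 were. Of the 23 genes 1 was well above background in all 12 mice. Stat2 was 1.54 to 1.99 (median 1.78) in the lpr-bearing mice and 1.27, 1.12, 1.16 and 1.10 in MRL/+, and Irf9 was 0.740 to 1.19 (median 0.98) against 0.649, 0.692, 0.461 and 0.444. In neither gene did the sides overlap. Isg15 (0.28, adjusted p = 0.432) and Ifit3 (0.39, adjusted p = 0.142), classical targets of type I interferon, did not pass.

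Among chemokines, 3 of 10 tested genes were higher and 0 lower, with a median of 0.57. Of all genes, 4.08% were higher and 5.55% lower. Cxcl12, the ligand of Cxcr4, was 3.02, 3.33, 2.70 and 3.3 in MRL/lpr, 1.92, 1.77, 2.27 and 2.27 in Fn14ko, and 0.985, 1.34, 1.03 and 1.00 in MRL/+. The 3 groups were separate and in that order, and the shift was 1.21 ± 0.15 (adjusted p = 0.00171). It rested on the brighter of 2 probes (1.46), since the other, with a mean signal of 0.408, showed -0.34 (adjusted p = 0.306). Ccl27a rose by 1.09 ± 0.20, but by 1.72 in MRL/lpr against 0.45 in Fn14ko, a difference of 1.28 (adjusted p = 0.00653). Cx3cl1, the neuronal ligand of the microglial receptor Cx3cr1, was called at 0.82 ± 0.24 with overlap.

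Neuronal lists were mixed, where 4.08% of all genes were higher and 5.55% lower. Of 20 genes of synaptic transmission 0 were higher and 4 lower, among them Gabbr1 (a subunit of the GABA-B receptor, -0.99 ± 0.16), Grin2b (an NMDA receptor subunit, -0.79 ± 0.15) and Gria2 (an AMPA receptor subunit, -0.70 ± 0.20), the last with overlap, and the median of the list was -0.09, as for all genes. Grin2b was 1.26 to 1.62 (median 1.5) in the lpr-bearing mice and 2.32, 2.11, 3.33 and 2.70 in MRL/+, so that the sides were clear of each other. The brighter of its 2 probes showed -0.90 and the other -0.43, with overlap (limma adjusted p = 0.229). Of 13 interneuron genes 3 were higher and 2 lower. Pvalb (0.83 ± 0.24), Npy (1.01 ± 0.23) and Vip (0.71 ± 0.18) mark separate interneuron classes, and Nos1 (-1.56 ± 0.29) and Tac2 (-0.71 ± 0.20) mark others. For Pvalb the brighter of 2 probes showed 0.86 and the other 0.48, with overlap (limma adjusted p = 0.157). Nos1 was dim, at 0.128 to 0.378 in the lpr-bearing mice and 0.396 to 0.915 in MRL/+, and well above background in 10 of 12 mice. The part of the high Cy5 background of MRL/+ in its shift was not tested. Vip overlapped MRL/+ and was higher in MRL/lpr than in Fn14ko by 1.09 (adjusted p = 0.0109). Of 14 genes of excitatory neurons, Slc17a7, the vesicular glutamate transporter, was lower in every lpr-bearing mouse (8.71 to 20.3, median 14.3, against 27.4, 20.5, 30.5 and 23.8, shift -0.83 ± 0.19), Bcl11b was lower (-0.72 ± 0.20) and Tbr1 higher (1.04 ± 0.24), both with overlap. Bcl11b was lower in MRL/lpr (-1.37) than in Fn14ko (-0.07), a difference of -1.30 (adjusted p = 0.00657).

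Of the oligodendrocyte, astrocyte and stress lists, 2 genes each were called, where 9.63% of all genes were. Cldn11, a claudin of the myelin sheath, was lower without overlap (-0.81 ± 0.18), and Mbp, myelin basic protein, was lower with overlap (-1.06 ± 0.31), out of 15 oligodendrocyte genes. Of 15 astrocyte genes 2 were lower, Slc4a4 (a bicarbonate transporter, -0.86 ± 0.21) and Serpina3n. Serpina3n, a serpin of reactive astrocytes, was lower in MRL/lpr (-2.59) and not in Fn14ko (-0.02), a difference of -2.56 (adjusted p = 0.000759), so its call for both groups came from MRL/lpr. Of 15 genes of endoplasmic reticulum stress and heat shock, Atf4 (a stress factor) was higher at 1.41 ± 0.36 with overlap and the chaperone Sdf2l1 lower at -1.09 ± 0.32. Nr3c1, the glucocorticoid receptor, was higher (0.82 ± 0.22), although its 2 probes went opposite ways (1.22 and -0.88). The 15 microglial genes, with Aif1 at 0.79 (adjusted p = 0.0758) and P2ry12 at 0.21, included 0 calls in limma, with 3 under an unadjusted p of 0.05. There were also 0 calls among 11 complement (1 under an unadjusted p of 0.05), 5 class II (3), 7 lymphocyte (2), 11 choroid plexus (0), 12 striatal (3), 23 ribosomal (1) and 22 respiratory chain genes (8). These unadjusted counts stand beside 5872 of all 17302 genes under an unadjusted limma p of 0.05.

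Markers of neighbouring tissue varied among mice. The summed signal of 12 striatal genes was 24.6 to 48.4 in MRL/lpr, 17.6 to 188 in Fn14ko and 13.7 to 24.1 in MRL/+, and their median shift was 0.66 with 0 called. That of 11 choroid plexus genes was 22.3 to 159.6, 33.0 to 299 and 33.0 to 313. Barhl1, a cerebellar factor, was 1 of 6 cerebellar genes called (-0.71 ± 0.20), and Prkcd 1 of 7 thalamic ones (-1.15 ± 0.25). Of all genes, 9.63% were called. Prkcd was 0.621 to 0.920 in MRL/lpr and 1.86 to 3.50 in Fn14ko, a difference of -1.82 (adjusted p = 0.00335). Hba-a1 and Hbb-b2, globins of red cells, were 2 of 5 blood genes called, at 1.71 ± 0.38 and 1.34 ± 0.36, both with overlap. They were 2.37 and 2.28 above MRL/+ in MRL/lpr, against 1.04 and 0.41 in Fn14ko. Alas2 (0.95, limma adjusted p = 0.129), the globin Hbb-b1 (-0.30, adjusted p = 0.541) and Slc4a1 (-0.43, adjusted p = 0.513) did not pass. The summed signal of the blood genes was 119 to 302 in MRL/lpr, 39.8 to 121 in Fn14ko and 34.6 to 61.9 in MRL/+, with Ahsp, Klf1 and Gata1 among the markers not quantified. The part of retained blood or of dissection in the shifts above was not tested. With the lpr-bearing mice as 1 group and an array or slide block, calls also became fewer in most lists that had any, with 3 endothelial, 1 chemokine and 1 interferon-stimulated gene higher, 1 immediate early gene in each direction, 2 synaptic and 1 interneuron gene lower, and 2 clock genes higher with the array block against 4 with the slide block.

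**Figure D4:**
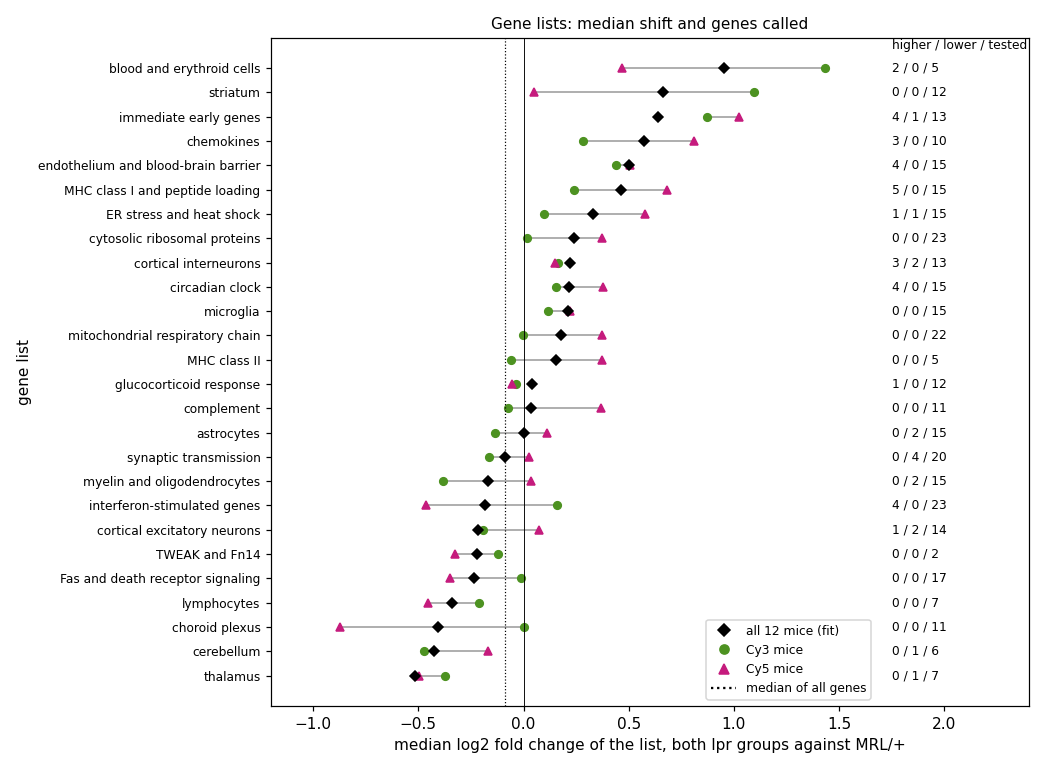
Median log2 fold change of 26 gene lists (vertical axis), both lpr groups against MRL/+ (horizontal axis), in the fit of all 12 mice (diamonds), among Cy3 mice (circles) and among Cy5 mice (triangles), with the median of all genes (-0.09) dotted. Numbers at the right are genes higher, lower and tested. Class I, endothelial, chemokine, clock and interferon-stimulated lists hold 3 to 5 higher and 0 lower genes each. Of all genes, 4.08% were higher and 5.55% lower.

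MRL/lpr and Fn14ko were then set against each other over the shared genes. Across all genes 790 (4.57%) were called for MRL/lpr against Fn14ko, and among the shared genes 31 (3.53%) were, 14 of the higher and 17 of the lower. For 228 shared genes (26.0%, against 18.3% of all genes) the 95% interval of the difference lay within 1.5-fold in either direction. The rule for shared genes favours a small spread in the same fit, which also narrows this interval. The percentages are therefore not a test of likeness between the lpr groups. For the other shared genes the interval reached beyond 1.5-fold, and apart from the 31 called neither likeness nor difference was shown. The shift was further from MRL/+ in MRL/lpr for 600 of the 878 genes and in Fn14ko for 278. Over all 17302 genes the numbers were 10360 and 6942, so a lean in that direction was present in all genes too.

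Of the shared genes with a symbol that differed between the lpr groups, the 5 largest differences were all lower genes that were further down in MRL/lpr. Galnt17, of the transferase family that starts O-linked glycans, was 1.86, 1.48, 1.48 and 1.33 in MRL/lpr, 4.86, 5.32, 5.44 and 7.31 in Fn14ko, and 7.77, 7.46, 9.12 and 8.90 in MRL/+. The 3 groups formed separate steps, with Fn14ko close under MRL/+. The shift was -2.44 in MRL/lpr and -0.55 in Fn14ko, a difference of -1.89 (adjusted p = 0.000426). C1ql2, a secreted synaptic organizer, differed by -2.08 (-2.64 against -0.56), Thsd4, a matrix protein, by -1.95 (-2.86 against -0.91), Tanc1, a postsynaptic scaffold, by -1.5 (-2.29 against -0.79) and Cldn22, a claudin, by -1.44 (-1.97 against -0.53). The rule for shared genes places every Fn14ko mouse below every MRL/+ mouse in these 5 genes. Against MRL/+, Fn14ko alone did not pass in any of them (limma adjusted p = 0.0907 to 0.239). Adjusted p for the difference between the lpr groups ran from 0.000304 to 0.00588.

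The largest fitted rise of all genes was that of the immunoglobulin kappa constant region, which has no gene symbol in the files and was named from the description of its probe after its values were seen. Immunoglobulin transcripts mark antibody-secreting cells of the B lineage. Kappa signal was 0.738, 1.54, 1.42 and 1.64 in MRL/lpr, 3.29, 35.1, 7.32 and 62.9 in Fn14ko, and 0.430, 0.586, 0.285 and 0.484 in MRL/+. Every lpr-bearing mouse was above every MRL/+ mouse, and every Fn14ko mouse above every MRL/lpr mouse. Kappa was well above background in all 8 lpr-bearing mice but in 2 of 4 MRL/+ mice, both labelled with Cy3. The shift was 3.35 ± 0.57 (10.2-fold, adjusted p = 0.00646), with 1.56 in MRL/lpr (adjusted p = 0.116 on its own) and 5.14 in Fn14ko (adjusted p = 0.00601), and MRL/lpr minus Fn14ko was -3.57 (adjusted p = 0.00829). The first 30 bases of the 60-base kappa probe are shown as the oligonucleotide with the largest rise.
Immunoglobulin kappa constant, chr6:70676692-70676751 (mm9), plus strand: gccactcacaagacatcaacttcacccatt

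The other constant regions did not all follow. The alpha constant region, well above background in 2 of 4 MRL/+ mice, rose by 2.57 ± 0.70 (adjusted p = 0.0404), with overlap. Its signal was 0.340, 0.557, 2.10 and 4.63 in MRL/lpr, 0.936, 12, 1.93 and 16.6 in Fn14ko, and 0.168 to 0.603 in MRL/+. The gamma 2C region was 0.679, 5.66, 1.64 and 24.3 in Fn14ko but 0.142 to 0.252 in MRL/lpr, within the 0.112 to 0.538 of MRL/+. Gamma 2C was therefore not called for both groups (1.32, adjusted p = 0.154) and differed between the lpr groups by -4.21 (adjusted p = 0.00549), as did Jchain, the joining chain of IgA and IgM, by -2.64 (adjusted p = 0.0105). The mu region did not pass (-0.38, adjusted p = 0.412). Of 10 immunoglobulin genes quantified, 2 were called higher for both lpr groups, where 4.08% of all genes were. Between MRL/lpr and Fn14ko 4 of the 10 differed (4.57% of all genes), all 4 higher in Fn14ko. The transcripts of these segments are near-identical in part, and probes of 1 may bind another.

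Detection of immunoglobulin probes was likewise highest in Fn14ko. Of 229 probes described as immunoglobulin, 20.5%, 14.0%, 30.1% and 19.7% were well above background in MRL/lpr, 30.6%, 42.8%, 43.2% and 57.2% in Fn14ko, and 15.3%, 0%, 10.5% and 0% in MRL/+. Each Fn14ko mouse was above each MRL/lpr mouse, and MRL/lpr replicate 2 overlapped MRL/+ replicate 1. Both MRL/+ mice at 0% were labelled with Cy5, in which fewer probes of every kind were well above background. Within Cy3, the mice stood at 20.5% and 30.1% in MRL/lpr, 30.6% and 43.2% in Fn14ko and 15.3% and 10.5% in MRL/+, so the lpr-bearing mice were above MRL/+ there too. The lymphocyte list had 0 of 7 tested genes called, with summed signals of 8.69 to 12.4, 6.27 to 11.4 and 7.78 to 16.2, and Ms4a1, Cd79b and Mzb1, which mark the B lineage, were among the markers not quantified. Of the class II genes, carried by antigen-presenting cells, H2-Ab1 was 0.680 to 7.62 in Fn14ko and 0.307 to 0.651 in MRL/lpr (difference -2.18, adjusted p = 0.0205), and it was not called for both groups (0.96, adjusted p = 0.128). A probe for the gamma 1 constant region, too dim in some mice to enter the tests, was well above background in 8 of 8 lpr-bearing and 0 of 4 MRL/+ mice, at least 2.25-fold higher over the 8. Its signal was 1.20, 5.69, 4.05 and 31.1 in Fn14ko, but 0.701, 1.21, 0.724 and 1.05 in MRL/lpr overlapped the 0.841, 0.958, 0.412 and 1.08 of MRL/+, so the fold rested on Fn14ko.

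**Figure D5:**
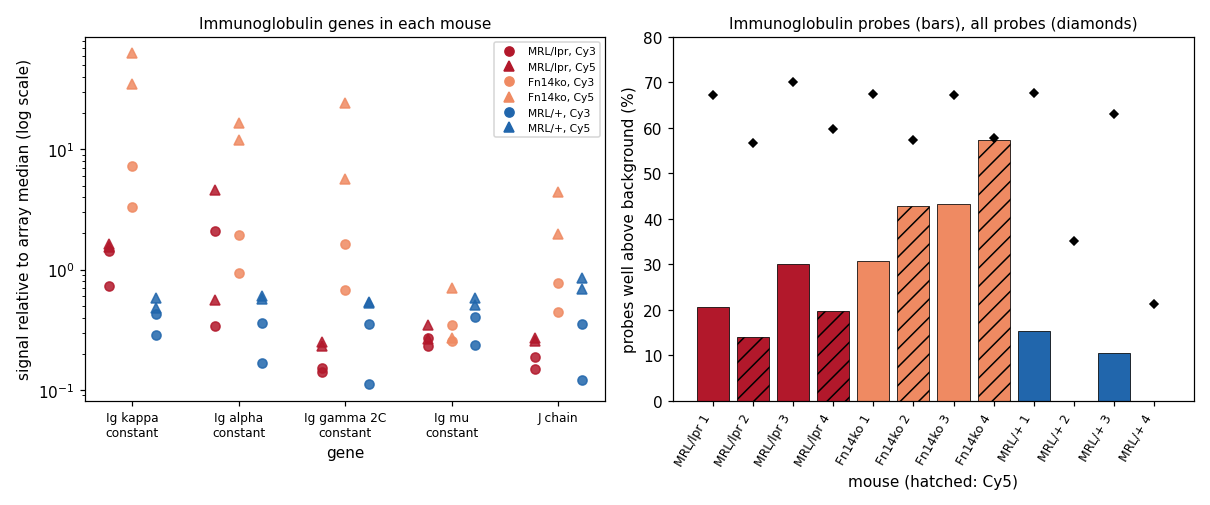
Left, signal of 5 immunoglobulin genes in each mouse relative to the array median (vertical axis, log scale), circles for Cy3 and triangles for Cy5. Right, percent of 229 immunoglobulin probes well above background in each mouse (bars, hatched for Cy5) with that of all probes (diamonds), where Fn14ko mice reach 30.6% to 57.2% and MRL/+ mice 0% to 15.3%.

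The shared genes were counted by whole chromosome only, and clusters within a chromosome were not tested. Over the 20 chromosomes with at least 100 tested genes, 0.613% to 2.93% of genes were shared higher and 2.32% to 4.18% shared lower. The lowest share of higher genes was on the X chromosome (4 of 653). Median GC content of the probe, over genes read on 1 spot, was 40.8% for the higher, 45.0% for the lower and 43.3% for the other genes.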

How the data were processed

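Cortex RNA of 12 female mice was measured on 6 Agilent arrays read in Cy3 and Cy5, and the authors deposited the output of Feature Extraction 12.1.0.3 for each array. Per the file headers, it gives the mean foreground and median local background intensity of each channel and spot, on a linear scale before normalization, with marks of spot quality, a processed intensity and probe positions in mm9. These deposited intensities were used as they stand. After removal of control spots (43020 left), spots marked as uneven or outlying (1952) and spots under 2 times local background in any mouse (17781) were left out, which left 24255 spots of 17302 genes. Background was corrected by normexp with an offset of 50 in limma 3.58.1 (R 4.3.3), each channel was divided by its median, and a gene's spots were averaged.

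Log2 signals of the 12 mice were fitted in limma with group and dye, a random block for array (correlation 0.32) and a trended variance. Contrasts were the mean of MRL/lpr and Fn14ko minus MRL/+, each lpr group minus MRL/+, and MRL/lpr minus Fn14ko, each 2-sided. P-values of all 17302 genes were adjusted by Benjamini-Hochberg and called at 0.05. Values after ± are standard errors, with 8 lpr-bearing and 4 MRL/+ mice, and the median standard error was 0.22. The number of arrays limits the precision. Exact permutation tests over 495 divisions, which ignore array and dye, were run for named genes, the smallest possible p being 0.00202. The permutation p was 0.135 for Serpina3n, 0.0727 for Prkcd and 0.0626 for Nr3c1, although limma called all of them. It was 0.0444 for the alpha and 0.0202 for the kappa constant region, 0.0263 for H2-D1, and 0.00202 for each of the 12 lowest genes. The fit was also tested on simulated data. Python 3.11.15 with pandas 2.3.3, numpy 2.4.6, scipy 1.17.1 and matplotlib 3.10.9 was used.

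Groups were taken from the labels, and the lpr background of Fn14ko from the methods of the study. The members and the gene lists were chosen with earlier results of these data known. Named genes were Fas, Tnfrsf12a, Tnfsf12, the 12 highest and 12 lowest shared genes with a symbol and a probe well above background in all mice, up to 3 members of each list by fold among those called without overlap (otherwise the largest called), the 5 largest differences between the lpr groups, and up to 3 probes per direction seen on 1 side only. A few list members are not reported here by name. Further genes are named for their place in a list or said to be chosen after their values were seen. Replicate numbers did not pair mice (same-number correlations with dye removed of -0.28 to 0.48). The alternatives concerned background correction, scaling, spot filters, probe merging, the dye term, blocks, the methods' t-test and each mouse left out in turn. No column of per-sample values was left unassigned.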

Additional observations from a re-analysis of the deposited data

Results flagged for a closer look

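Some values stood apart from the rest. A mouse was far from the other 3 of its group in 5 of 192 groups tested, where chance gives about 1 in 20. Osbpl1a was 13.8 in Fn14ko replicate 3 (7.29 to 8.06 in the others), and Clasrp was 8.51 in the same mouse (4.18 to 4.6). Schip1 was 0.891 in MRL/lpr replicate 2 (1.92 to 2.23), Cxcl12 was 1.34 in MRL/+ replicate 2 (0.985 to 1.03), and Col6a1 was 0.424 in MRL/+ replicate 4 (0.706 to 0.755).

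MRL/lpr and Fn14ko differed in their shift from the same MRL/+ mice, by the limma contrast of the lpr groups, in the following genes. The difference, MRL/lpr minus Fn14ko on the log2 scale, was positive for Tnfrsf12a (1.27), Ccl27a (1.28) and Col6a1 (1.15). It was negative for C1ql2 (-2.08), Thsd4 (-1.95), Galnt17 (-1.89), Tanc1 (-1.5), Cldn22 (-1.44), Serpina3n (-2.56) and Prkcd (-1.82), and for the immunoglobulin kappa (-3.57) and gamma 2C (-4.21) constant regions and Jchain (-2.64). Among the other list members given above, it was 1.29 for Egr2, 1.38 for Arc, 1.09 for Vip, -2.18 for H2-Ab1, -1.30 for Bcl11b and 1.87 for Hbb-b2.

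Outside the genes tested, probes of the immunoglobulin gamma 1 constant region and of Mamdc2 were well above background in 8 of 8 lpr-bearing and 0 of 4 MRL/+ mice, at least 2.25-fold and 1.43-fold higher over the 8. Both folds rested on Fn14ko (1.20 to 31.1 and 1.57 to 3.20), since MRL/lpr (0.701 to 1.21 and 0.748 to 0.956) overlapped MRL/+ (0.412 to 1.08 and 0.368 to 0.951). Both MRL/+ mice labelled with Cy5 had few probes of any kind above background.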

How the results depend on the processing

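The counts varied widely with the processing. They are given below as genes called, shared higher, shared lower, called in each lpr group, and differing between MRL/lpr and Fn14ko, from 1667, 364, 514, 121 and 790, and the cause of each change was not tested unless stated. Background subtraction gave 4738, 469, 816, 1568 and 2849, normexp on negative controls 9309, 167, 886, 1334 and 14350, the processed signal 2159, 222, 682, 499 and 1889, and loess with quantile scaling 4222, 413, 1157, 925 and 3482. The 75th percentile gave 2483, 137, 824, 361 and 947. Without a filter on dim spots (29149 genes, median of all genes 0.55) limma called 0, 0, 0, 0 and 32, with 5139 genes under an unadjusted p of 0.05 for both lpr groups. Spots well above background in all 12 mice (7025 genes) gave 1695, 134, 486, 449 and 1133, single probes 2957, 568, 876, 234 and 1005, no dye term 1843, 447, 549, 213 and 900, and no array block 4837, 574, 624, 1196 and 1782. With the lpr-bearing mice as 1 group, an array block gave 200, 44 and 152 and a slide block 342, 107 and 210. Cy3 mice alone gave 749, 266, 416, 133 and 469, the fit without both Cy5 MRL/+ mice 190, 31, 117, 6 and 538, and the methods' t-test, 789, 239, 382, 2 and 443 after adjustment (3579 genes under an unadjusted p of 0.05). Of the called genes, 42.4% were higher, but 29.2% with the processed signal or with spots well above background in all mice, 32.9% after loess and quantile scaling and 18.6% under the 75th percentile.

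Leaving out 1 mouse at a time gave 174 to 6029 called, 26 to 984 shared higher, 116 to 3420 shared lower, 8 to 1593 called in each lpr group and 357 to 1002 differing. The lowest numbers came without MRL/+ replicate 4, and the highest of the first 4 without MRL/+ replicate 3. Calls also moved by more than 1.5 times without Fn14ko replicate 1 (4415), Fn14ko replicate 2 (616), Fn14ko replicate 3 (868) and MRL/lpr replicate 1 (1019), and those in each lpr group also without MRL/lpr replicate 3 (66) and MRL/+ replicate 1 (220). Genes differing numbered 385 without Fn14ko replicate 2, 484 without MRL/lpr replicate 1 and 501 without MRL/+ replicate 3. With the replicate number as a block, 5327 genes were called, 564 shared higher, 617 shared lower, 813 in each lpr group and 1624 differing, but the numbers do not pair the mice.

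Of 1660 values of named genes under the alternatives, 1347 kept direction and call, 292 lost the call, 8 gained one and 13 changed sign. With normexp on negative controls the sign changed for Fas (0.33), Tnfsf12 (0.15), Barhl1 (0.12), Ccl27a (-0.069), Npy (-0.20) and Pvalb (-0.24). Without a dim filter it changed for Tnfsf12 (0.25) and Tnfrsf12a (0.63). Tnfrsf12a, near 0, also became 0.19 among Cy3 mice and without both Cy5 MRL/+ mice, and with 1 mouse left out ranged from -0.14 to 0.073, changing sign without MRL/lpr replicate 4 (0.024), MRL/+ replicate 2 (0.0058) or MRL/+ replicate 4. B2m was called in 18 and Pvalb in 11 of 30 alternatives, and of 29 that held them H2-D1 was called in 13, Sdf2l1 in 15 and Barhl1 in 11. Of the shared genes, 178 higher and 379 lower kept their direction in every alternative that fitted them. Dim genes, with high background in both Cy5 MRL/+ channels, limit what can be read below the median signal.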

Other observations

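Other class I genes of the H2 region, chosen after their values were seen, were also higher in every lpr-bearing mouse. H2-Q8 was 1.53 to 2.43 in MRL/lpr, 1.53 to 4.53 in Fn14ko and 0.638 to 0.996 in MRL/+ (1.47, limma adjusted p = 0.00625). H2-Q2 rose by 1.37 (adjusted p = 0.00765) and H2-M2 by 0.94 (adjusted p = 0.0135), whereas H2-M3 (-0.61, adjusted p = 0.23) and H2-Q10 (-0.16, adjusted p = 0.659) did not pass. Cd74, the invariant chain of class II, was 0.802 to 1.97 in MRL/lpr, 1.55 to 11.7 in Fn14ko and 0.678 to 1.54 in MRL/+, with a shift of 1.35 that did not pass (adjusted p = 0.0634). Among the shared genes, 37 higher and 103 lower ones carry accession-like names in the files and were counted but not named.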
